A study of Mus musculus with 6 samples.

Results

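Death receptors are cell-surface members of the TNF receptor family, and the genes that carry their signal were compared between ICB-resistant lines and the parental line of CT26, a mouse colon carcinoma line. The 8 genes were Fas, Tnfrsf1a, Tnfrsf10b, Casp8, Cflar, Ripk1, Birc2 and Birc3, matched by symbol to the Ensembl identifiers of the 53801 genes quantified. All 8 were measured. RNA came from 3 lines with 2 libraries each, replicates A and B. The parental line was bulk CT26 recovered from tumours, and lines B04 and B64 were each grown from a single cell of engrafted tumours and carry different barcodes, so that each resistant line is 1 clone. Per the study, B04 and B64 were isolated after ICB treatment, so a difference that was there before treatment and one that arose under it cannot be told apart. All lines are of BALBc origin and were grown in RPMI medium. The study selected cancer cells recovered from tumours with puromycin, and the labels give no treatment of the cultures from which RNA was taken. The sample titles call the samples tumours, whereas the study's methods describe cultured lines in duplicate. Whether the duplicates were separate cultures is not given, so p-values measure only the spread between these libraries, which may be technical.

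Fas ligand, TRAIL and TNF, made by T cells and other immune cells, bind death receptors on a target cell. Fas and TRAIL receptors recruit the adaptor FADD, which gathers pro-caspase-8 into a complex where the caspase cuts itself and becomes active. The protein of Cflar, cFLIP, resembles caspase-8 without a working active site and enters the same complex, where the long form at high levels holds the caspase back. The TNF receptor first assembles RIPK1, TRAF2 and the ubiquitin ligases cIAP1 and cIAP2 into a membrane complex that activates NF-kB, and loss of those ligases or of cFLIP can turn the same signal towards death. This route acts beside perforin and granzymes as a way by which T cells kill tumour cells.

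Library totals ranged from 19409204 to 23472012 expected counts. Replicates of a line differed by more than counting noise (chi-square per degree of freedom 5.33 to 7.17) and by less than libraries of different lines (26.44 to 41.35). The average fragment length, read as gene length minus effective length, was 271.77 to 277.32 bases in both parental libraries and B04 replicate A and 220.84 to 246.18 bases in the other 3, so that B64 and the parental line cannot be compared at like fragment length. Of 15 leukocyte and T-cell markers only Cd68 reached 1 TPM, their sum was 10.52 to 12.23 TPM in the lines parental and B04, and 36.67 and 40.29 TPM in the B64 libraries, and Ptprc was at most 0.01 TPM. Of 9 colon epithelial markers only Krt18 and Krt20 reached 1 TPM. Their sum was 22.38 to 25.42 TPM in the lines parental and B04, and 45.74 and 48.23 TPM in the B64 libraries, and the defining epithelial genes Epcam and Cdh1 were at most 0.06 TPM. The part of these markers in the B64 values was not tested. In bulk RNA, fewer cells expressing a gene and less of its RNA per cell cannot be told apart.

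Cflar, the caspase-8 inhibitor, had the smallest adjusted p of the 8 genes in each comparison. Its mRNA fell in both resistant lines, by far the more in B04, and it was higher in B64 than in B04. The call of Cflar in B64 against parental did not hold with a fragment-length term or in limma on TPM. Tnfrsf10b, the mouse TRAIL receptor, fell in B04. Birc3, which encodes cIAP2, fell in B64 from an already low level. This call rested on few reads and did not hold with a fragment-length term, with effective lengths as an offset or in limma on TPM. Of the 8 genes, 2 were called in B04 against parental at a DESeq2 adjusted p under 0.05, both lower, where 24.1% of the 13218 genes tested were called (11.2% higher, 12.9% lower). In B64 against parental 2 were called, both lower, against 16.3% of all genes (8.87% higher, 7.45% lower). Between B64 and B04 1 was called, higher in B64, against 24.3% of 12855 genes (13.1% higher, 11.1% lower). The counts of called members therefore sat near these shares. The groups did not overlap for 6 members in B04, 6 in B64 and all 8 between the clones, where 65.0%, 61.4% and 67.1% of all genes did not overlap. The median log2 fold change of the 8 genes was -0.20 in B04 and -0.255 in B64, and that of all genes was 0.002 and -0.002. Both clones were set against the same parental libraries, so their values are given side by side and were not correlated.

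**Figure D1:**
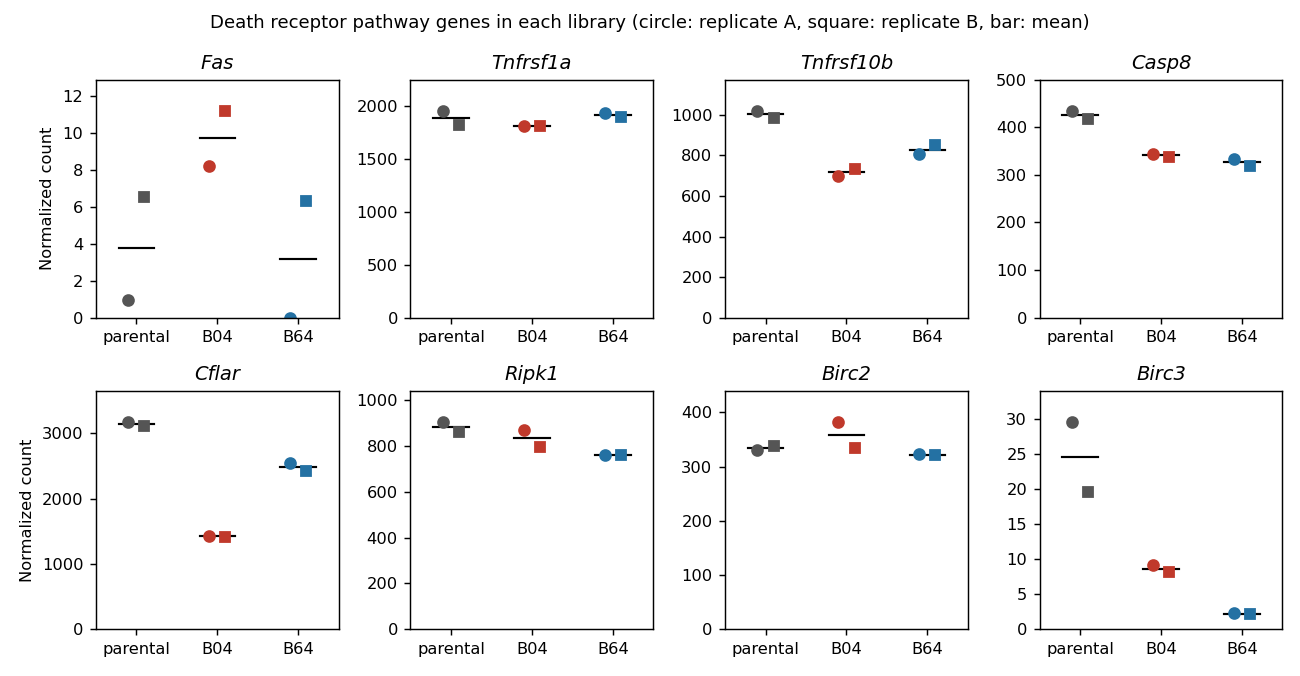
Normalized count (DESeq2 size factors, vertical axis from 0 on a scale of its own in each panel) of the 8 genes in parental, B04 and B64 libraries; circles are replicate A, squares replicate B and bars the mean of 2. Cflar sits at 1417 and 1426 in B04, below 2421 and 2551 in B64 and 3117 and 3172 in the parental line, while Fas never exceeds 11.2.

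Among the receptors, levels per transcript length differed widely. On the TPM scale, which corrects for length, Tnfrsf1a, the main TNF receptor, was the most abundant of the 8 genes in every library, with 51.2 ± 4.14 TPM in the parental line, 51.2 ± 0.06 in B04 and 52.7 ± 1.22 in B64 (SD, n = 2, as for all TPM means). Cflar ranked second in all 6 libraries. Fas and Birc3 held the 2 lowest ranks in all 6 libraries, and the 4 others lay between.

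Fas (chr19:34290666-34327772, plus strand, in GRCm38, as are all positions) encodes the receptor of Fas ligand. It was close to silent. Its expected counts were 1 and 7 in the parental line, 9 and 11 in B04 and 0 and 6 in B64. As normalized counts these were 0.95 and 6.55, 8.21 and 11.2, and 0 and 6.31. The B04 libraries were above all others by a few reads, and the B64 range overlapped the parental one. The TPM was 0.16 ± 0.16 in the parental line, 0.42 ± 0.08 in B04 and 0.13 ± 0.18 in B64. The log2 fold change was 1.37 (SE 1.40, DESeq2 adjusted p = 0.57) in B04, with an interval from -1.37 to 4.10, and -0.24 (SE 1.48, adjusted p = 0.958) in B64. Summed over a line, 20 counts in B04 against 8 in the parental line gave a depth-adjusted ratio of 2.55 with a 95% counting interval from 1.07 to 6.68, which leaves out the spread between libraries. Whether Fas changed was not resolved at these counts, as libraries of the parental line and of B64 differed widely among themselves.

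The stretch before the first annotated Fas start is shown because this receptor was the lowest-ranked of the 8 in the parental line. It comes from RefSeq (GRCm38.p6, chr19:34290409-34290646, plus strand, 238 bases), and capitals mark CpG dinucleotides.
Fas: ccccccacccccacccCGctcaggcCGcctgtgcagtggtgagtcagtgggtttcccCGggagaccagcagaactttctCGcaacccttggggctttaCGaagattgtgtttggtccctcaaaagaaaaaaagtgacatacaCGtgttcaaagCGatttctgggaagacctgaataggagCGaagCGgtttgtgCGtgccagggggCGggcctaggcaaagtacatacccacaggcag
It holds 11 CpG, or 4.62 per 100 bases. Over the 250 bases before the start in all 32851 promoter windows the median was 2.4, with quartiles at 0.8 and 6.4.

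Tnfrsf1a (chr6:125349362-125362484, plus strand) varied little. Its normalized counts were 1954 and 1820.01 in the parental line, 1806 and 1807 in B04 and 1930.05 and 1895 in B64. The B64 values lay inside the parental range and the B04 values just under it. The log2 fold change was -0.06 in B04 (95% interval -0.22 to 0.10, DESeq2 adjusted p = 0.675) and 0.02 in B64 (-0.14 to 0.18, adjusted p = 0.931). A log2 change beyond 0.22 in either direction lay outside both intervals.

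Tnfrsf10b (chr14:69767472-69784411, plus strand), the death-domain receptor for TRAIL in mice, differed in B04. Its normalized counts were 1021 and 984 in the parental line, 700.45 and 735 in B04 and 808 and 849 in B64. The 3 lines did not overlap, with B64 between the others. In B04 it was 28.4% lower (log2 fold change -0.48, SE 0.11, DESeq2 adjusted p = 0.000109). In B64 the log2 fold change was -0.27 (SE 0.11) and did not pass (adjusted p = 0.0655). Between B64 and B04 it was 0.21 (SE 0.11, adjusted p = 0.175), so the clones were not shown to differ. The edgeR test called both differences (adjusted p = 0.0165 and 0.0499). On the TPM scale the levels were 17.5 ± 0.95, 13.1 ± 0.55 and 14.8 ± 0.37. None of the 6 nearest tested protein-coding genes, 3 on each side, was called in either clone against parental, with median log2 fold changes of -0.06 in B04 and 0.04 in B64. Relative to Tnfrsf1a, the count of Tnfrsf10b was 0.522 and 0.541 in the parental line, 0.388 and 0.407 in line B04, and 0.418 and 0.448 in line B64.

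Casp8 and Cflar encode the initiator caspase and its regulator, and they are neighbours on chromosome 1. Cflar (chr1:58711508-58758884) and Casp8 (chr1:58795374-58847503) lie on the plus strand with 36489 bases between them. The normalized counts of Casp8 were 435 and 418 in the parental line, 344 and 338 in B04 and 333 and 319.6 in B64. Both clones were below both parental libraries and did not overlap each other. The log2 fold changes were -0.32 in B04 (SE 0.16, 95% interval -0.63 to -0.02) and -0.39 in B64 (SE 0.16, -0.69 to -0.08). Neither passed after adjustment over all genes (DESeq2 adjusted p = 0.123 and 0.0746). The edgeR quasi-likelihood test, run beside it, called both (adjusted p = 0.016 and 0.00924).

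Cflar had normalized counts of 3172 and 3117 in the parental line, 1426 and 1417 in B04 and 2551 and 2421 in B64. No lines overlapped, and the replicates of each line lay close together. In B04 the gene was 2.21-fold lower (log2 fold change -1.15, SE 0.08, 95% interval -1.29 to -1.0, DESeq2 adjusted p = 1.76e-49). In B64 it was 1.265-fold lower (log2 fold change -0.34, SE 0.07, adjusted p = 8.18e-05). Line B64 exceeded B04 by 1.75-fold, a log2 fold change of 0.81 (SE 0.08, 95% interval 0.66 to 0.96, adjusted p = 4.27e-24). Libraries were put in 2 fragment-length classes, above and below 260 bases. Compared within a class, with 1 B04 library in each, the log2 ratio was -1.14 for B04 against parental and 0.81 for B64 against B04. Lengths within the shorter class still differed, at 225.18 bases in B04 replicate B and 220.84 and 246.18 in B64 replicates A and B. With fragment-length class as a term of the model, the log2 fold change in B64 was about as large and no longer called (-0.33, SE 0.15, DESeq2 adjusted p = 0.449). B64 and the parental line share no fragment-length class, so that term rested on the difference between B04 replicates A and B. The fit thus holds no direct comparison of B64 and parental at like fragment length. The B64 difference did not pass in limma on TPM either (adjusted p = 0.124 to 0.198), where the difference between the clones passed with log2(TPM + 1) and a filter on low values (adjusted p = 0.0459), and did not pass with log2(TPM + 1) without the filter (0.0894) or with log2(TPM + 0.1) (0.0605).

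On the TPM scale Cflar was 45.3 ± 0.14 in the parental line, 22.5 ± 4.23 in B04 and 33.7 ± 1.53 in B64. The wider spread in B04 came with the length term, since RSEM gave an effective length of 2949.8 bases in replicate A and 3931.15 bases in replicate B. The TPM was 25.5 and 19.5 in these libraries, whose normalized counts were nearly the same. Values per gene do not separate the forms of cFLIP, so which form fell is not known here. Of 50-base words in its transcripts, 7.36% also occur in other genes, more of them in Gm9845 than in any other.

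The count of Cflar relative to Casp8 was lower in B04 than in the other lines. The ratio in the parental line was 7.29 and 7.46, in line B04 it was 4.15 and 4.19, and in line B64 it was 7.66 and 7.58. The B64 ratios were slightly above the parental ones, as both genes were lower there by similar log2 amounts. As a ratio of TPM it was 4.65 and 4.51, 2.88 and 2.42, and 4.29 and 4.09. With 2 libraries a line, an exact two-sided permutation test on such a ratio can give no p below 0.333, and none was run.

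The surrounding genes were read to see whether the whole stretch moved, a comparison chosen after the Cflar values were seen. The nearest 20 tested protein-coding genes, as many on each side, spanned chr1:57955101-59985348. Among these 20 neighbours, 8 fell and 1 rose in B04 (DESeq2, adjusted p under 0.05), with a median log2 fold change of -0.256. In B64 7 fell and none rose, with a median of -0.298. Of all genes tested, 12.9% were called lower and 11.2% higher in B04, and 7.45% lower and 8.87% higher in B64. The neighbours ranged from -0.62 (Nif3l1) to 0.39 (Aox1) in B04 and from -0.60 (Orc2) to 0.31 in B64. The Cflar value in B64, -0.34, lay inside the neighbours' range and close to their median, whereas its value in B04, -1.15, was below all 20 neighbours. Casp8 was near the neighbours' median in both clones. Gene copy number was not measured in these files, and its part in these values was not tested.

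**Figure D2:**
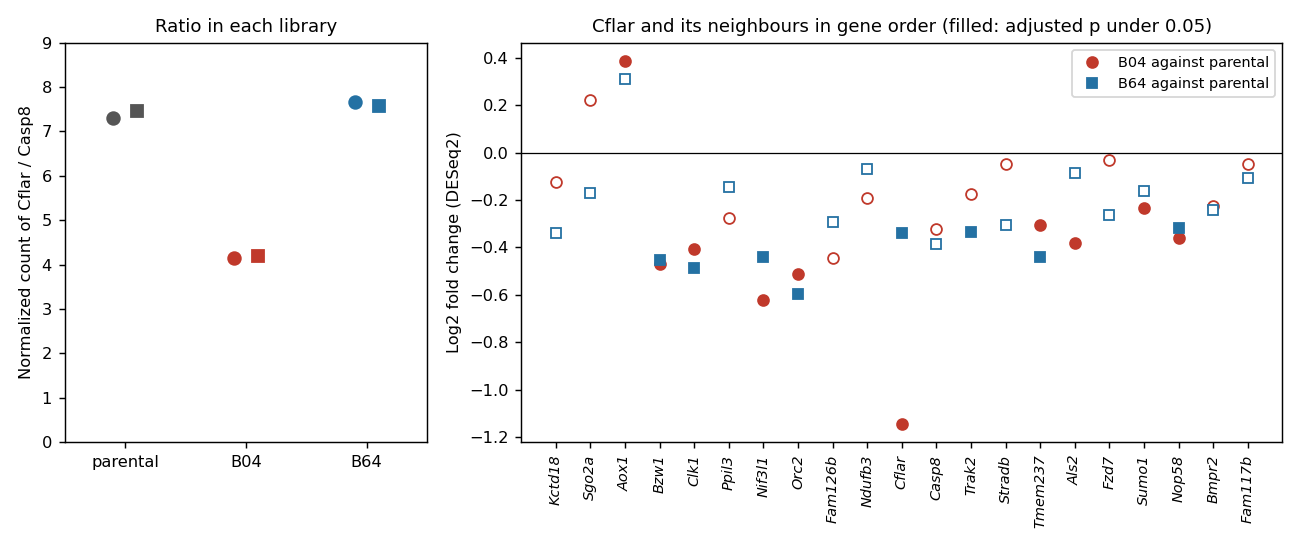
Left, normalized count of Cflar divided by that of Casp8 in each library (circles replicate A, squares replicate B); right, log2 fold changes against parental of Cflar and its 20 neighbours on chromosome 1 in gene order, B04 as circles and B64 as squares, filled where called. The ratio is 4.15 and 4.19 in B04 and above 7 elsewhere, and Cflar in B04 is the lowest point at -1.15 while in B64 it lies among its neighbours.

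The stretch of RefSeq sequence before the first annotated Cflar start is shown because this gene had the smallest adjusted p of the 8 in each comparison (GRCm38.p6, chr1:58711241-58711310, plus strand, 70 bases, CpG in capitals).
Cflar: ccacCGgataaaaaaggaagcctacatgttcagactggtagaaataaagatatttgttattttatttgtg
It holds 1 CpG, or 1.43 per 100 bases, and 32.9% G and C. Windows of 300 bases around the start were in the table for 7 of the 8 genes, 9 windows in all, with none for Tnfrsf10b. The NF-kB consensus, searched on both strands, was in none of them, and 4.5% of all windows held it. A pair of interferon-response half-sites (ISRE) occurred in the Cflar window and in 1 of the 2 Ripk1 windows, and in 3.4% of all windows. The STAT pattern TTCNNNGAA (GAS) occurred in the windows of Fas and Tnfrsf1a and in that same Ripk1 window, and in 8.3% of all windows. These matches describe letters and say nothing of binding.

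Ripk1, the kinase that scaffolds TNF receptor signalling and can switch it to apoptosis or necroptosis, lies at chr13:34002363-34037147 on the plus strand. Its normalized counts were 905 and 862 in the parental line, 871 and 797 in B04 and 761 and 760.1 in B64. B04 overlapped the parental line, and B64 lay below both. The log2 fold changes were -0.08 in B04 (SE 0.11, DESeq2 adjusted p = 0.688) and -0.22 in B64 (SE 0.11, adjusted p = 0.203). Exons of Ripk1 overlap those of Serpinb6a on the other strand by 241 bases and those of Gm17084 by 511 bases. Serpinb6a changed in both clones, with values given below, and without strand its reads in the shared bases cannot be told from those of Ripk1.

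Birc2 and Birc3 encode the ubiquitin ligases cIAP1 and cIAP2, which attach ubiquitin to RIPK1 in the TNF receptor complex. They lie side by side on the minus strand of chromosome 9, Birc2 at chr9:7818227-7837064 and Birc3 at chr9:7848699-7873186, with 11634 bases between them. Birc2 was steady, with normalized counts of 330.1 and 338 in the parental line, 382 and 334 in B04 and 323 and 321 in B64. The parental and B04 ranges overlapped, and B64 was just below both. The log2 fold changes were 0.10 in B04 (95% interval -0.22 to 0.42, DESeq2 adjusted p = 0.752) and -0.05 in B64 (-0.38 to 0.27, adjusted p = 0.903).

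Birc3 had normalized counts of 29.6 and 19.6 in the parental line, 9.12 and 8.14 in B04 and 2.27 and 2.1 in B64. No lines overlapped. These rest on few reads, with expected counts of 31 and 21, 10 and 8, and 2 and 2. In B64 it fell, by DESeq2 (log2 fold change -3.50, SE 1.05, 95% interval -5.56 to -1.43, adjusted p = 0.00838). The summed counts, 52 in the parental line and 4 in B64, gave an 11.3-fold lower level with a 95% counting interval from 4.14 to 42.9. In B04 the log2 fold change was -1.51 (SE 0.84) and did not pass (adjusted p = 0.201), and the clones were not shown to differ (-1.99, SE 1.09, adjusted p = 0.192). The call in B64 was lost when any 1 parental or B64 library was left out, while the log2 fold change stayed about as large. It was -3.17 without parental replicate A (adjusted p = 0.226), -3.76 without parental replicate B (0.0547), -3.55 when B64 replicate A was left out (0.121) and -3.44 when B64 replicate B was (0.133). With fragment-length class in the model it was -3.33 (adjusted p = 0.711). With effective lengths as an offset the log2 fold change in B64 was -2.28 (adjusted p = 0.225). RSEM gave Birc3 effective lengths of 1816.29 and 1900.48 bases in the parental line and 1002.88 and 640.02 in B64. In limma on log2(TPM + 1) without a filter the B64 difference was -0.54 (adjusted p = 0.151). The edgeR test called the B04 difference (adjusted p = 0.0257).

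Birc3 was below 1 TPM in all libraries, at 0.68 ± 0.23 in the parental line, 0.32 ± 0.20 in B04 and 0.15 ± 0.04 in B64, whereas Birc2 was 6.75 ± 0.40, 8.66 ± 1.02 and 6.93 ± 0.41 TPM. The count of Birc3 relative to Birc2 was 0.09 and 0.058 in the parental line, 0.024 in both B04 libraries and 0.007 in both B64 libraries. Of 50-base words in Birc3 transcripts 7.56% also occur in other genes, 65 words in Birc2, so a few reads could be shared. The stretches before the first annotated starts of these adjacent genes, whose levels differ so much, are shown side by side (RefSeq, GRCm38.p6, minus strand, Birc2 chr9:7837132-7837307, 176 bases, and Birc3 chr9:7873206-7873420, 215 bases, CpG in capitals).
Birc2: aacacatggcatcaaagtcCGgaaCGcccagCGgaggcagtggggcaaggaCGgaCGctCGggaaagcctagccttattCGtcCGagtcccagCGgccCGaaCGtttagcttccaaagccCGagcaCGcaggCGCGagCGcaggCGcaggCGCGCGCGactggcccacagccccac
Birc3: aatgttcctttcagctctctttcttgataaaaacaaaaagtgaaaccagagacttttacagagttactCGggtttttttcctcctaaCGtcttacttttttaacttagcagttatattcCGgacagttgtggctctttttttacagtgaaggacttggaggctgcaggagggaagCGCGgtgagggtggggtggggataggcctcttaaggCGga
The Birc2 stretch holds 21 CpG (11.93 per 100 bases) and 67.0% G and C, and the Birc3 stretch 6 CpG (2.79 per 100 bases) and 44.2% G and C. The Birc2 value was above the upper quartile of all windows and the Birc3 value near their median.

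**Figure D3:**
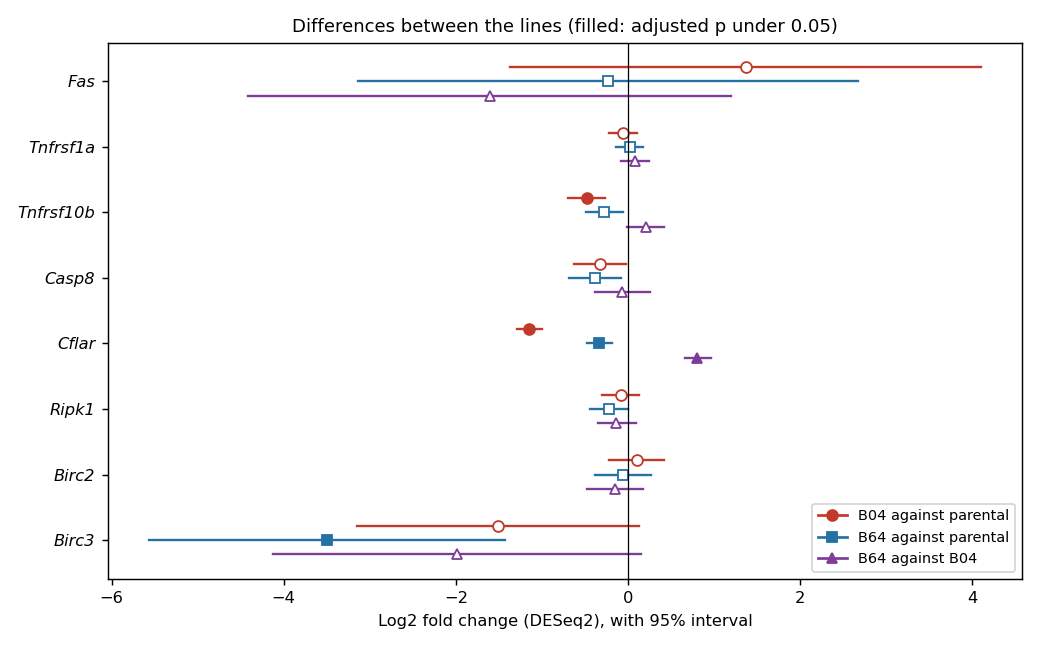
Log2 fold change of each of the 8 genes with its 95% interval (DESeq2, 6 libraries in 1 fit), circles for B04 against parental, squares for B64 against parental and triangles for B64 against B04, filled where the adjusted p was under 0.05. The intervals of Cflar are narrow and all 3 exclude 0, while those of Fas and Birc3 span several log2 units.

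Genes with a pattern like that of each member were listed over the 6 libraries, by Pearson correlation of log2 normalized counts among 9878 genes with a mean of at least 100. These r values describe 6 libraries of 3 lines and carry no test. The most alike were Ube2f (r = 0.9994) and Nomo1 (0.9982) for Cflar, Rad9a (0.9997) and Rasa2 (0.9995) for Tnfrsf10b, and 9930104L06Rik (0.9993) and Dync1i2 (0.9973) for Casp8. They were Tagap1 (0.9959) and Clasp2 (0.9932) for Ripk1, Pigu (0.9891) and Svil (0.9797) for Birc2, and Diaph2 (0.977) and Polr3a (0.9766) for Tnfrsf1a. Fas and Birc3 were too low to be compared.

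The rest of the pathway was read from 8 lists of 102 genes. Of 85 genes tested, 24 rose and 11 fell in B04 (41.2% called, against 24.1% of all genes) and 18 rose and 7 fell in B64 (29.4% against 16.3%), by DESeq2 with p-values adjusted over all genes. These shares describe the lists and were not tested against other genes. On the TPM scale, tested with limma on log2(TPM + 1), the split of all calls leaned to higher values, with 69.5% of calls higher in B04 and 68.6% in B64, where DESeq2 had 46.4% and 54.3%.

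Transcripts of Fas ligand, TNF and TRAIL were all but absent. Fasl had a normalized count of 0.91 in B04 replicate A and 0 elsewhere, Tnf 1.13 in B64 replicate A and 0 elsewhere, and Tnfsf10, which encodes TRAIL, between 1.05 and 9.06. Tnfsf12, which encodes TWEAK, was the only ligand tested. Its normalized counts were 279 and 267 in the parental line, 462 and 391.9 in B04 and 360.2 and 419 in B64. It rose in both clones, with log2 fold changes of 0.65 (SE 0.17, DESeq2 adjusted p = 0.00112) and 0.52 (SE 0.17, adjusted p = 0.0196).

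Of 7 other death and decoy receptors tested, 1 rose and 1 fell in B04, where 24.1% of all genes were called. In B64, where 16.3% of all genes were called, 3 rose and 1 fell. The TWEAK receptor Tnfrsf12a fell in both, from 9030.08 and 9868 normalized counts to 4980 and 5347 in B04 and 6925 and 7379 in B64 (log2 fold changes -0.87 and -0.40, DESeq2 adjusted p = 6.6e-37 and 5.16e-08). The second TNF receptor, Tnfrsf1b, rose by 0.47 and 0.33 on the log2 scale (adjusted p = 0.000517 and 0.0308). Tnfrsf23 and Tnfrsf22 encode mouse decoy receptors that bind TRAIL without a death domain. In B64 Tnfrsf23 rose from 767 and 686 to 1286 and 1228 normalized counts (log2 fold change 0.79, adjusted p = 4.73e-11), and Tnfrsf22 rose by 0.35 (adjusted p = 0.02). In B04 the values were -0.17 and 0.01, neither called.

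The adaptors at the receptor did not pass in either clone. Fadd had normalized counts of 396 to 416 in the parental line, 416 to 435 in B04 and 399 to 414 in B64, and Tradd of 439.8 to 568, 579 to 642 and 507 to 618. Of 23 genes tested for adaptors and the TNF receptor complex, 5 rose and 3 fell in B04, where 24.1% of all genes were called. In B64 2 rose and 2 fell, or 17.4% of those tested, near the 16.3% of all genes called. Traf1, a TRAF protein that binds TRAF2 and the cIAPs, rose from 39.1 and 34.6 normalized counts to 90.3 and 104 in B04 and 85 and 87.3 in B64 (log2 fold changes 1.40 and 1.23, DESeq2 adjusted p = 0.00073 and 0.00621). The NEMO gene Ikbkg rose in both (0.44 and 0.54), and the deubiquitinase gene Cyld fell in both (-0.25 and -0.36). Tnip1 (0.64) and Sharpin (0.40) rose in B04 and Chuk fell there (-0.25), whereas Tnfaip3, which encodes the ubiquitin-editing enzyme A20, fell in B64 (-0.41, adjusted p = 0.0412).

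**Figure D4:**
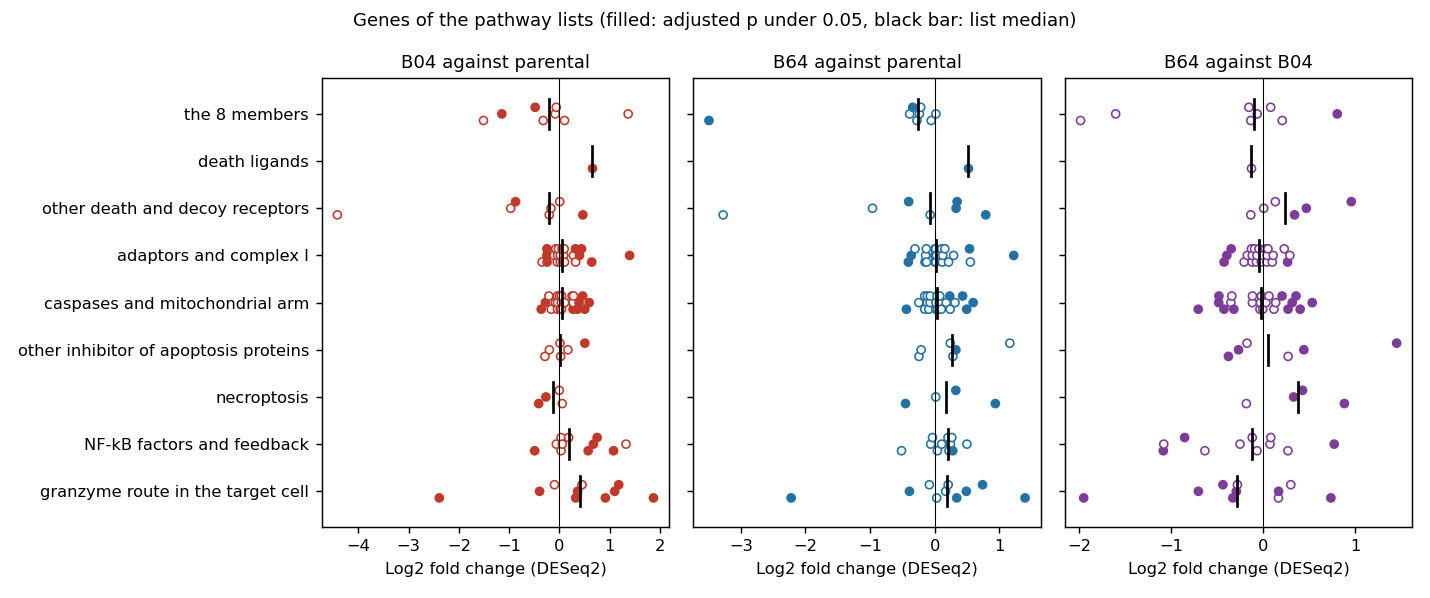
Log2 fold changes (DESeq2) of the 8 genes and of the tested genes of each pathway list, 1 point a gene, in B04 against parental, B64 against parental and B64 against B04; filled points were called and black bars are list medians. Medians of the lists lie near 0 for adaptors and caspases (0.05 and 0.04 in B04), and the lowest filled points are Igf2r in both clones in the granzyme list and Birc3 in B64.

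Of 23 genes tested for caspases and the mitochondrial arm, 6 rose and 2 fell in B04, where 24.1% of all genes were called. In B64, where 16.3% of all genes were called, 4 rose and 1 fell. Bid, which links caspase-8 to mitochondria once cut, fell in B64 from 1253 and 1227 normalized counts to 902 and 930.45 (log2 fold change -0.44, DESeq2 adjusted p = 0.000128) and was 1305 and 1249.95 in B04. Among protective genes, Bcl2 rose in B04 (0.59, adjusted p = 2.36e-05), while Bcl2l1 (-0.36) and Mcl1 (-0.28) fell there. Bbc3, which encodes the pro-death protein PUMA, rose in both clones (0.46 and 0.43). Parp1, a substrate of caspases, rose in B04 (0.27).

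Among the other inhibitor of apoptosis proteins, Xiap, which blocks caspases, rose in both clones. Its normalized counts were 1686 and 1495 in the parental line, 2329 and 2181 in B04 and 1927 and 2068 in B64 (log2 fold changes 0.51 and 0.33, DESeq2 adjusted p = 2.58e-07 and 0.00262). It was the only 1 of 6 tested that was called in either clone against parental. Of all genes, 24.1% were called in B04 and 16.3% in B64.

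Of 4 necroptosis genes tested, 2 fell in B04, where 24.1% of all genes were called. In B64, where 16.3% of all genes were called, 2 rose and 1 fell. Ripk3, which joins RIPK1 in the necroptotic complex, had 0 counts in 5 libraries and a normalized count of 1.82 in B04 replicate A, and was not tested. Its substrate Mlkl was abundant and fell in B04, from 2196 and 2147 to 1613 and 1652 normalized counts (-0.41, DESeq2 adjusted p = 1.89e-06), with 2192 and 2203 in B64. Zbp1, a nucleic acid sensor that acts through RIPK3, rose in B64 from 110 and 99.1 to 188 and 212 (0.94, adjusted p = 0.00254). Pgam5 fell in both clones, by -0.27 in B04 (adjusted p = 0.00254) and -0.45 in B64 (adjusted p = 1.16e-07) on the log2 scale. Aifm1 rose in B64 (0.33, adjusted p = 1.53e-05).

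Of 11 NF-kB factors and feedback genes, 4 rose and 1 fell in B04, where 24.1% of all genes were called. In B64, where 16.3% of all genes were called, 1 rose. Rel, which encodes c-Rel, rose in B04 from 393 and 358 to 846 and 736 normalized counts (1.08, DESeq2 adjusted p = 6.63e-13) and was 432 and 445 in B64. Nfkbia (0.75) and the NIK gene Map3k14 (0.57) rose in B04. Nfkbib, which encodes an inhibitor of NF-kB, fell in B04 (-0.49, adjusted p = 3.28e-06) and rose in B64 (0.28, adjusted p = 0.0191).

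The granzyme route is the other arm of T-cell killing. Of 10 genes tested, 6 rose and 2 fell in B04 (24.1% of all genes called), and 4 rose and 2 fell in B64 (16.3% of all genes called). Igf2r, the mannose 6-phosphate receptor that can take up granzyme B, fell in both, from 1149 and 1014 normalized counts to 218 and 194 in B04 and 253 and 211 in B64 (log2 fold changes -2.39 and -2.22, DESeq2 adjusted p = 6.71e-52 and 1.17e-44). Gsdmd, which encodes the pore-forming protein gasdermin D, rose in both (1.18 and 0.74). Serpinb9b, a relative of the granzyme B inhibitor gene, rose in B04 from 512 and 556 to 1022 and 992 (0.91, adjusted p = 3.35e-13) and Serpinb6b from 60.1 and 29.9 to 178 and 151 (1.87, adjusted p = 4.11e-06), while Serpinb6a fell in B04 (-0.395, adjusted p = 1.17e-11) and rose in B64 (0.34, adjusted p = 7.85e-09).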

How the data were processed

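RNA from parental CT26 cells and lines B04 and B64 was sequenced as paired reads of 150 bases. The authors aligned reads to mm10 with STAR (version 2.5) and quantified genes with RSEM, whose version and annotation release are not given in the sources used here. The deposited tables hold an expected count per gene, in which RSEM splits reads that match several genes, and the deposited TPM is scaled by effective length and library total. Deposited FPKM values were not used, and 1 gene of the lists is counted but not reported here. After rounding to whole numbers, counts went into DESeq2 (version 1.42.0, R 4.3.3; Wald test, default independent filtering, all 6 libraries in 1 fit with line as its term), the tool of the study's methods, at a Benjamini-Hochberg adjusted p under 0.05 over all genes tested. Normalized counts are expected counts divided by DESeq2 size factors. Symbols and positions are from GENCODE M21 (99.7% of identifiers matched), promoter sequences and gene order from RefSeq GRCm38.p6. Counting intervals cover counting error only.

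The 8 genes and the lists were chosen with earlier results of these data known. Named are the 8 genes, up to 3 called genes with the smallest p per list and contrast with fixed pathway genes, neighbouring genes, and the 2 genes most alike. Alternatives were edgeR (version 4.0.16), TMM factors, filters, only the libraries compared, blocks for replicate letter and fragment-length class, effective lengths as an offset, limma (version 3.58.1) on log2(TPM + 1) and log2(TPM + 0.1), and leaving out each library. The 20 genes around Cflar, values within a fragment-length class and counting intervals were chosen after seeing the data. Tests were checked on simulated counts without a fragment-length difference. The genes changed there had higher counts than Fas and Birc3 and larger changes than Tnfrsf10b, so the check does not cover such cases. Whether replicate letters pair the libraries is not given, and the main fit left them unpaired. Deviations of same-lettered libraries correlated at 0.11, 0.01 and -0.05 across genes.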

Additional observations from a re-analysis of the deposited data

Results flagged for a closer look

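The effects of B04 and B64 against the same parental line differed when the clones were compared directly, which is a test of the difference itself (DESeq2, B64 against B04, adjusted p under 0.05). Of the 8 genes this held for Cflar, with a log2 difference of 0.806 (SE 0.08, adjusted p = 4.27e-24), and both B64 libraries were above both B04 libraries. It did not hold for Birc3, called in B64 only (log2 difference -1.99, adjusted p = 0.192), or for Tnfrsf10b, called in B04 only (0.21, adjusted p = 0.175).

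Among the genes singled out from the pathway lists, the following differed between the clones, as log2 fold changes of B64 against B04. Higher in B64 were Aifm1 (0.33), Bcl2l1 (0.27), Cd9 (0.17), Chuk (0.27), Mcl1 (0.36), Mlkl (0.43), Naip2 (0.44), Naip5 (1.45), Nfkbib (0.77), Serpinb6a (0.74), Tnfrsf12a (0.47), Tnfrsf22 (0.34), Tnfrsf23 (0.96) and Zbp1 (0.88). Lower in B64 were Bcl2 (-0.70), Bid (-0.48), Birc5 (-0.38), Gsdmd (-0.44), Map3k14 (-1.08), Parp1 (-0.42), Rel (-0.85), Serpinb6b (-1.95), Serpinb9b (-0.70), Sharpin (-0.39), Tnfaip3 (-0.42) and Tnip1 (-0.35). These genes were named for being called in at least 1 contrast, this one included, or as fixed pathway genes.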

How the results depend on the processing

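With 2 libraries a line, fragment length confounded with B64 and the parental line, and Fas and Birc3 at a few counts, only large or abundant differences are well measured. Of 365 values of the 8 genes under alternatives, 333 kept direction and side of the threshold. Of the rest, 7 gained a call, 13 lost one and 12 changed sign. Another 25 were fitted without an adjusted p. Neither count includes genes that a filter removed before the fit. These were Fas in edgeR, with a mean count of at least 10 and in limma with a filter, and Birc3 in limma with a filter. Cflar and Tnfrsf10b stayed called in B04 in all alternatives run.

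Called members were 4 (B04), 4 (B64) and 2 (B64 against B04) with edgeR, and in B64 4 with a mean count of at least 10, 1 with the effective-length offset, 0 with the fragment-length block and 0 in each limma test, and 0 between the clones in limma with log2(TPM + 0.1) or without a filter, where Cflar had an adjusted p of 0.0605 and 0.0894. In B64 the limma adjusted p of Cflar was 0.124 to 0.198. Genes called were 1596, 340 and 1625 (B04, B64 and B64 against B04) with the fragment-length block, 1772, 1008 and 1832 in limma with log2(TPM + 1), 1530, 769 and 1629 with log2(TPM + 0.1) and 1536, 873 and 1637 without a filter; 68.8% of the 340 were higher. Without single libraries they ranged from 1755 to 2577 in B04, 988 to 1772 in B64 and 1696 to 2758 between the clones, and called members from 1 to 2 in B64. The replicate block gave 2655, 1716 and 2638 genes and 2, 2 and 1 members, and changed no call of a member.

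Signs changed in uncalled values near 0: in limma, Tnfrsf1a (0.002) and Ripk1 (0.007) in B04 in all 3 versions and Birc2 in B64 (0.033, 0.037 and 0.033); Birc2 in B64 with the fragment-length block (0.142); without single libraries, Birc2 in B04 (-0.002 to 0.194) and Tnfrsf1a in B64 (-0.033 to 0.069). Causes were not tested.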
